A study of Homo sapiens with 3 samples.

Results

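Binding of HA-tagged TFE3 was examined at 9 autophagy genes: SQSTM1, NBR1 and OPTN, which encode cargo receptors, MAP1LC3B, GABARAP and GABARAPL1, which encode proteins of the ATG8 family, and ULK1, ATG9A and WIPI1, which act at the start of autophagosome formation. The genes were chosen by name, with earlier results of these data known. For each, all summits in its hg19 gene span and the 5 kb on either side were taken. A summit is the single base that the authors listed as the top of a peak of chromatin immunoprecipitation sequencing (ChIP-seq) reads, with a score. The 9 windows cover 318.0 kb, or 0.01% of the chromosomes used. They held 41 of 62287 summits in the list of replicate 1 and 39 of 72647 in the list of replicate 2. Summits of both lists that were each other's nearest and at most 100 bp apart were called shared, and 31 of 47396 shared summits lay in these windows.

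The chromatin came from HK-2 cells, an established human kidney proximal tubule line, that carry a gene for HA-TFE3 switched on by doxycycline. Both ChIP libraries (replicates 1 and 2) were precipitated through the HA tag, and 1 library of input DNA was listed but gave no file used here. All 3 carry the same genotype label, HA-TFE3-inducible cells. The labels describe 24 h of culture with or without doxycycline at 0.2 µg/ml in medium with 1.5% FCS. They do not say which libraries received it, and no uninduced or mock precipitation was analysed here, so the background of the precipitation was not measured. HA-TFE3 was introduced, so its binding is not that of TFE3 made from the cells' own gene. The labels do not say whether the cells are 1 clone or whether both ChIP libraries came from separate cultures. The spread between them may thus be technical. Summit lists hold no expression values, so the identity of the cells could not be checked against marker genes.

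Autophagy encloses cytoplasm in a double membrane, the autophagosome, that then fuses with the lysosome. The kinase ULK1 starts the process, ATG9A is the transmembrane protein of the vesicles that supply the first membrane, and WIPI1 binds the phosphoinositide made on it. LC3B (the product of MAP1LC3B), GABARAP and GABARAPL1 are coupled to lipid on the growing membrane. SQSTM1 (p62), NBR1 and OPTN (optineurin) bind ubiquitin on cargo and the ATG8 proteins at the same time, and so carry cargo in. TFE3, a transcription factor of the MiT/TFE family, is known to bind E-box sequences with the core CACGTG in promoters of lysosomal and autophagy genes.

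To show which E-boxes stand at the starts of these genes, RefSeq promoter sequences (GRCh38.p14, from 250 bases before to 50 after an annotated start, read along the gene's strand) were searched on both strands. All 9 genes had an entry, and SQSTM1, NBR1 and OPTN had more than 1. The sequences below belong to 3 genes whose highest shared summit lay at the upstream end of the span (GABARAPL1, WIPI1 and ATG9A), to MAP1LC3B, with shared summits on both sides of its span, and to OPTN, which had none. Capitals mark every E-box of the general form CANNTG. They are chr12:10212627-10212926 on the plus strand, chr17:68457447-68457746 and chr2:219229587-219229886 on the minus strand, and chr16:87392086-87392385 and chr10:13099832-13100131 (the first of 2 OPTN entries) on the plus strand.
GABARAPL1: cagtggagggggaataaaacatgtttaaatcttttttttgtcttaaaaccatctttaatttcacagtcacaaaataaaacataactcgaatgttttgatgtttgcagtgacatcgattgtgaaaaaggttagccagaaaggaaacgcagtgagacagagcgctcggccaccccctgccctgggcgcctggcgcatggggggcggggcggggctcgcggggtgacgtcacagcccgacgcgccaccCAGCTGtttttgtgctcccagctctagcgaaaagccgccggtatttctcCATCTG
WIPI1: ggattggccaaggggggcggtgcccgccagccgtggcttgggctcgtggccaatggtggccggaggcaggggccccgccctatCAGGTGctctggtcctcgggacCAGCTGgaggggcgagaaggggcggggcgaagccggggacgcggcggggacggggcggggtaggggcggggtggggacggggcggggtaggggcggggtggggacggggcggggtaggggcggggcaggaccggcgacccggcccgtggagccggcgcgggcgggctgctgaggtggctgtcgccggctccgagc
ATG9A: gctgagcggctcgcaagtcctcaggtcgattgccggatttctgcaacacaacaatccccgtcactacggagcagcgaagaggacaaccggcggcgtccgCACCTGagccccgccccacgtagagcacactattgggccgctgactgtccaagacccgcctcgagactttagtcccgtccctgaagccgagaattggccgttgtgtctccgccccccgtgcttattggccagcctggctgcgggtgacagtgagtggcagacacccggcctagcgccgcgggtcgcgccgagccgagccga
MAP1LC3B: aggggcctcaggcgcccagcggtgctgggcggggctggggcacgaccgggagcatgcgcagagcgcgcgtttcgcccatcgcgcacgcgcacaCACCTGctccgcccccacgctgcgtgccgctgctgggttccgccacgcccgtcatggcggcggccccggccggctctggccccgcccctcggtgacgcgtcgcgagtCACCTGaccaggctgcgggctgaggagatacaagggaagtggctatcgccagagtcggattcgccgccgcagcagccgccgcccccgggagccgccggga
OPTN: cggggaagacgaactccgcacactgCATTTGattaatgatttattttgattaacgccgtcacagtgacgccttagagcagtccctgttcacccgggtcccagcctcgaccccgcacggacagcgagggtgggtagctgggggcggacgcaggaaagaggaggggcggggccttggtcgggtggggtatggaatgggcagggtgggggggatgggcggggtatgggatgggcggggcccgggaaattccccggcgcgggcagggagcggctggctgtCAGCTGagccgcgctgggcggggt

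CACGTG was found in the promoter sequence of 0 of the 9 genes, while 8.77% of all 27305 genes in the table hold it. Its extended forms TCACGTGA and TCACGTGAC, each of which contains CACGTG, were also found in 0 of the 9, against 1.18% and 1.01% of all genes. The general form CANNTG was found in 8 of 9 (not in ULK1), against 73.1% of all genes. A gene counted if any of its entries held the form. In SQSTM1 only the first of 3 entries did, and in NBR1 only the second of 2. The E-boxes printed above have the cores CAGCTG and CATCTG in GABARAPL1, CAGGTG and CAGCTG in WIPI1, CACCTG in ATG9A and in both sites of MAP1LC3B, and CATTTG and CAGCTG in OPTN. Of 38 other autophagy genes listed for this search (such as BECN1, ATG5 and ULK2), 31 had an entry, and 3 of these, ATG3, ATG14 and BNIP3, held CACGTG (9.68%). Further motifs were looked at after the sequences had been seen. The form CATGTG was found in 0 of the 9 genes, against 13.4% of all genes. The form TCANNTGA, which contains CANNTG, was found in MAP1LC3B and OPTN, against 8.9% of all genes. The form TGACGTCA, the known binding sequence of CREB-type factors, was found in GABARAPL1, where it begins at base 221 of the printed sequence, against 2.25% of all genes. The G and C content of the printed sequences was 51.7% in GABARAPL1, 79.7% in WIPI1, 65.3% in ATG9A, 75.7% in MAP1LC3B and 66.3% in OPTN. These letters cover 300 bases each and say nothing about sites outside them. The summits are on hg19, for which no sequence was used here, so summits could not be placed on these sequences.

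Of the 9 genes, 8 had at least 1 shared summit and OPTN had 0. Of genome windows of the length of the OPTN window, which include regions without genes, 36.5% held at least 1. Windows around other genes were not counted, so 8 of 9 cannot be read as particular to autophagy genes. At 100 bp MAP1LC3B had 6, and GABARAP and GABARAPL1 had 5 each (all 3 had 5 at a limit of 50 bp). Of the others, SQSTM1 had 4, ULK1, ATG9A and NBR1 had 3 each, and WIPI1 had 2. The windows of the ATG8 family genes held 16 of the 31, or 51.6%, on 66.0 kb. Those of the initiation and membrane genes held 8 on 107.0 kb and those of the cargo receptors 7 on 145.0 kb. Windows also cover parts of neighbouring genes. The 16 include pairs at MAP1LC3B and GABARAP that are not assigned to these genes (below) and others beyond the GABARAP span. Among the 8 are the ATG9A pairs beyond its downstream end. Shared summits thus occurred at 242 per Mb in the ATG8 family windows (95% Poisson interval 139 to 394), at 74.8 per Mb (32.3 to 147) in those of the initiation genes and at 48.3 per Mb (19.4 to 99.5) in those of the receptors. The interval of the ATG8 family overlapped that of the initiation genes and lay above that of the receptors. The roles were set with earlier results of these data known, so these intervals describe the groups and do not test them. Windows of short genes consist mostly of flank and gene start, and no difference between the groups was tested. All intervals given here cover counting error alone, and summits that stand close together may share a bound region.

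Over all 9 windows shared summits occurred at 97.5 per Mb (66.2 to 138), against 15.6 per Mb over chromosomes 1 to 22 and X, a ratio of 6.25. With each library alone the ratio was 6.28 in replicate 1 and 5.13 in replicate 2. At the densities of their own chromosomes the 9 windows would hold 7.19 shared summits in place of 31, a ratio of 4.31. The 8 genes with shared summits exceeded the density of their own chromosome by 1.25 times (WIPI1) to 12.9 times (GABARAPL1). The intervals of WIPI1, NBR1, ULK1 and OPTN included the density of the chromosome, and those of the other 5 genes lay above it. The genome values include regions without genes. Windows around other genes were not compared, so the ratio cannot be read as particular to autophagy genes. Of all summits, 75.6% of those of replicate 1 in the 9 windows were shared (exact binomial interval 59.7 to 87.6), against 76.1% in the whole list. In replicate 2 the share was 79.5% (63.5 to 90.7), against 65.2% in the whole list. Both intervals include the share of the whole list.

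**Figure D1:**
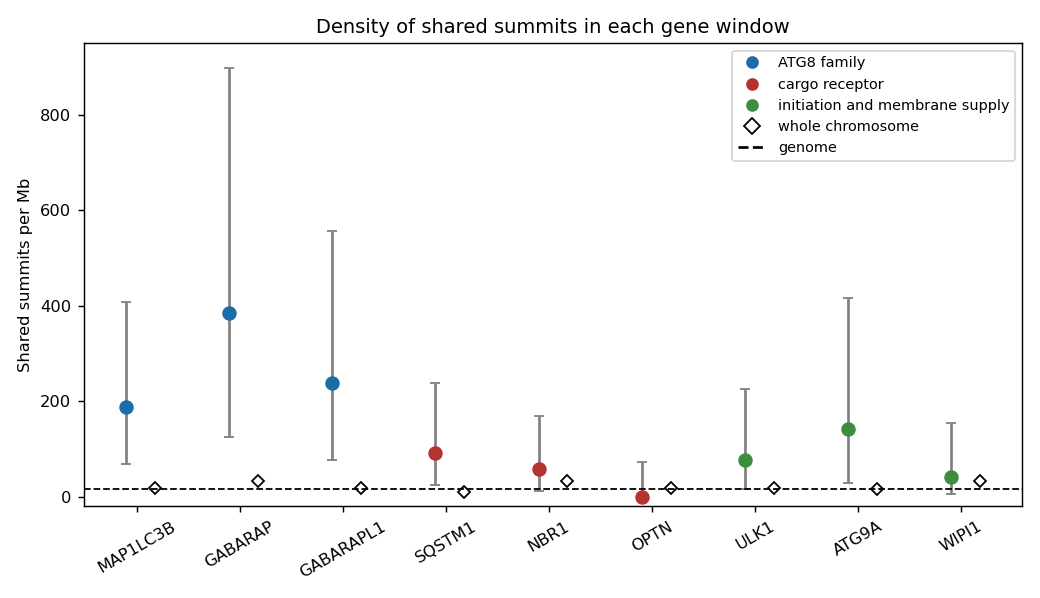
Shared summits per Mb in the window of each gene (filled points, coloured by role) with 95% Poisson intervals, beside the whole chromosome of that gene (open diamonds) and the genome (dashed line). GABARAP, GABARAPL1 and MAP1LC3B stand at 385, 238 and 188 per Mb and OPTN at 0, against 15.6 per Mb in the genome.

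The positions of summits are given as distances from the upstream end of the gene span, which is given to 1 kb only. Of the 31 shared summits, 20 lay from 1 kb before to 3 kb after an upstream end, a range chosen after the positions were seen, and they came from all 8 genes with shared summits. Without MAP1LC3B, whose span may not begin at its RefSeq start (below), it was 18 from 7 genes. None lay in the 4 kb before that range. Within 2 kb of an upstream end there were 13, or 41.9%, on 11.3% of the length, and these came from 7 genes. Their density was 361 per Mb, against 63.8 per Mb in the rest of the windows. Upstream ends of other genes were not counted, so this difference cannot be read as particular to autophagy genes. Without MAP1LC3B there were 11 within 2 kb, from 6 genes.

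**Figure D2:**
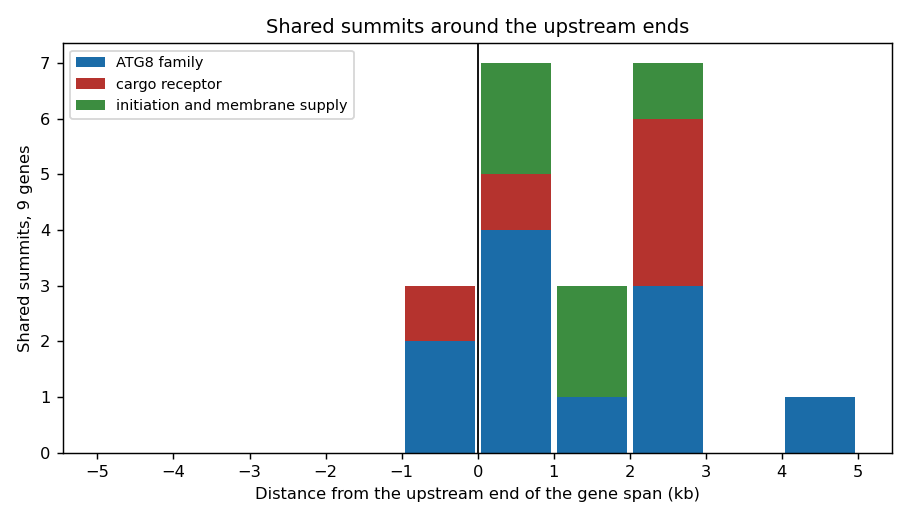
Shared summits of all 9 genes by distance from the upstream end of the span, in bins of 1 kb, with negative distances before the gene and colours for the gene's role. The bins from 0 to 1 kb and from 2 to 3 kb hold 7 each, and the 4 bins farthest upstream hold 0.

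Among the ATG8 family, GABARAPL1 had its highest summit at the upstream end of its span. GABARAPL1 encodes a close relative of GABARAP and lies in band 12p13.2 on the plus strand (10365000 to 10376000). The highest pair lay at base 10365051 in replicate 1 and 10365034 in replicate 2, 51 and 34 bp into the span. It scored 38.8 in replicate 1 and 38.1 in replicate 2, which is percentile 97.4 and 96.5 of these lists. The other 4 shared summits lay at 467, 1142, 2332 and 2684 bp in replicate 1, with scores of 5.65 to 10.1 in replicate 1 and 4.36 to 18.5 in replicate 2. Only the last of them, at 2684 bp, was far apart in rank, at percentile 36.3 in replicate 1 and 80.5 in replicate 2. All 5 summits of each list were paired, at 4 to 17 bp, so the position of every summit at GABARAPL1 was alike in both libraries. In RefSeq an antisense RNA gene, GABARAPL1-AS1, starts 2190 bp after the GABARAPL1 start, inside the stretch with shared summits. Of all genome windows of the same length, 0.37% held at least 5 shared summits.

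MAP1LC3B, whose product LC3B is the most used marker of autophagosomes, had shared summits before, inside and beyond its span. It lies in band 16q24.2 on the plus strand, with a span of 87417000 to 87439000. The highest pair lay outside the span, 2388 bp beyond its downstream end, at base 87441388 in replicate 1 and 87441394 in replicate 2. It scored 41.6 in replicate 1, the highest of all shared summits in the 9 windows there, and 34.4 in replicate 2 (percentiles 98.0 and 95.1). The second, at base 87422163 and 5163 bp into the span, scored 25.4 and 35.8 in replicates 1 and 2. Those at 8785 and 11246 bp scored 17.2 and 16.2 in replicate 1 and 16.7 and 20.3 in replicate 2, so both libraries placed them close in rank. The pairs at the upstream end, at -435 and 482 bp from it in replicate 1, were less alike. The first scored 9.85 and 3.55, and the second 23.2 and 9.50, in replicates 1 and 2. Unpaired summits were weak, with 4.67 at 4747 bp in replicate 1 and 2.58 at 1134 bp in replicate 2.

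The span of MAP1LC3B in the rule is 22000 bp, whereas its RefSeq gene on GRCh38 is 12439 bp long, a difference of 9561 bp. For the other 8 genes the difference was 471 to 1773 bp. The upstream end of the span may therefore not be the RefSeq start. If the whole difference lay upstream, that start would be 9561 bp into the span. The shared pair at 8785 bp would then be the nearest to it. RefSeq also places 2 starts of FBXO31, a neighbour on the other strand, at -8560 and -215 bp from the MAP1LC3B start. On the same assumption, the first would stand near the upstream end of the span and the second near the pair at 8785 bp. Which end of the span holds the difference was not determined. The shared summits at the upstream end of the span are therefore not assigned to MAP1LC3B. Of genome windows of that length, 0.469% held at least 6 shared summits.

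GABARAP, a founding member of its subfamily, is the shortest gene of the 9. It lies in band 17p13.1 on the minus strand, with a span of 3.0 kb (7143000 to 7146000). The highest pair lay near the downstream end, at base 7143093 in replicate 1 and 7143083 in replicate 2, 2907 and 2917 bp from the upstream end. It scored 28.2 in replicate 1 and 30.1 in replicate 2, percentile 92.8 in both. The pair at the upstream end itself was lower, at 142 bp in replicate 1, with 10.7 in replicate 1 and 10.8 in replicate 2 (percentiles 60.0 and 60.3). The remaining 3, at -404, 4861 and 6898 bp from the upstream end, scored 5.34 to 7.67 in replicate 1 and 5.31 to 10.2 in replicate 2. In RefSeq the neighbouring gene PHF23, on the same strand, has starts 2992 and 3519 bp after that of GABARAP, whose RefSeq gene is 2442 bp long. The highest pair thus lay in the interval of the end of GABARAP and the start of PHF23, as far as a span given to 1 kb allows, and it is not assigned to either. As at GABARAPL1, all 5 summits of each list were paired. Of genome windows of 13.0 kb, which include regions without genes, 0.0882% held at least 5 shared summits. The pairs at 4861 and 6898 bp lay past the places of the PHF23 starts, and the highest pair is unassigned. The share thus describes the window and not GABARAP alone.

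**Figure D3:**
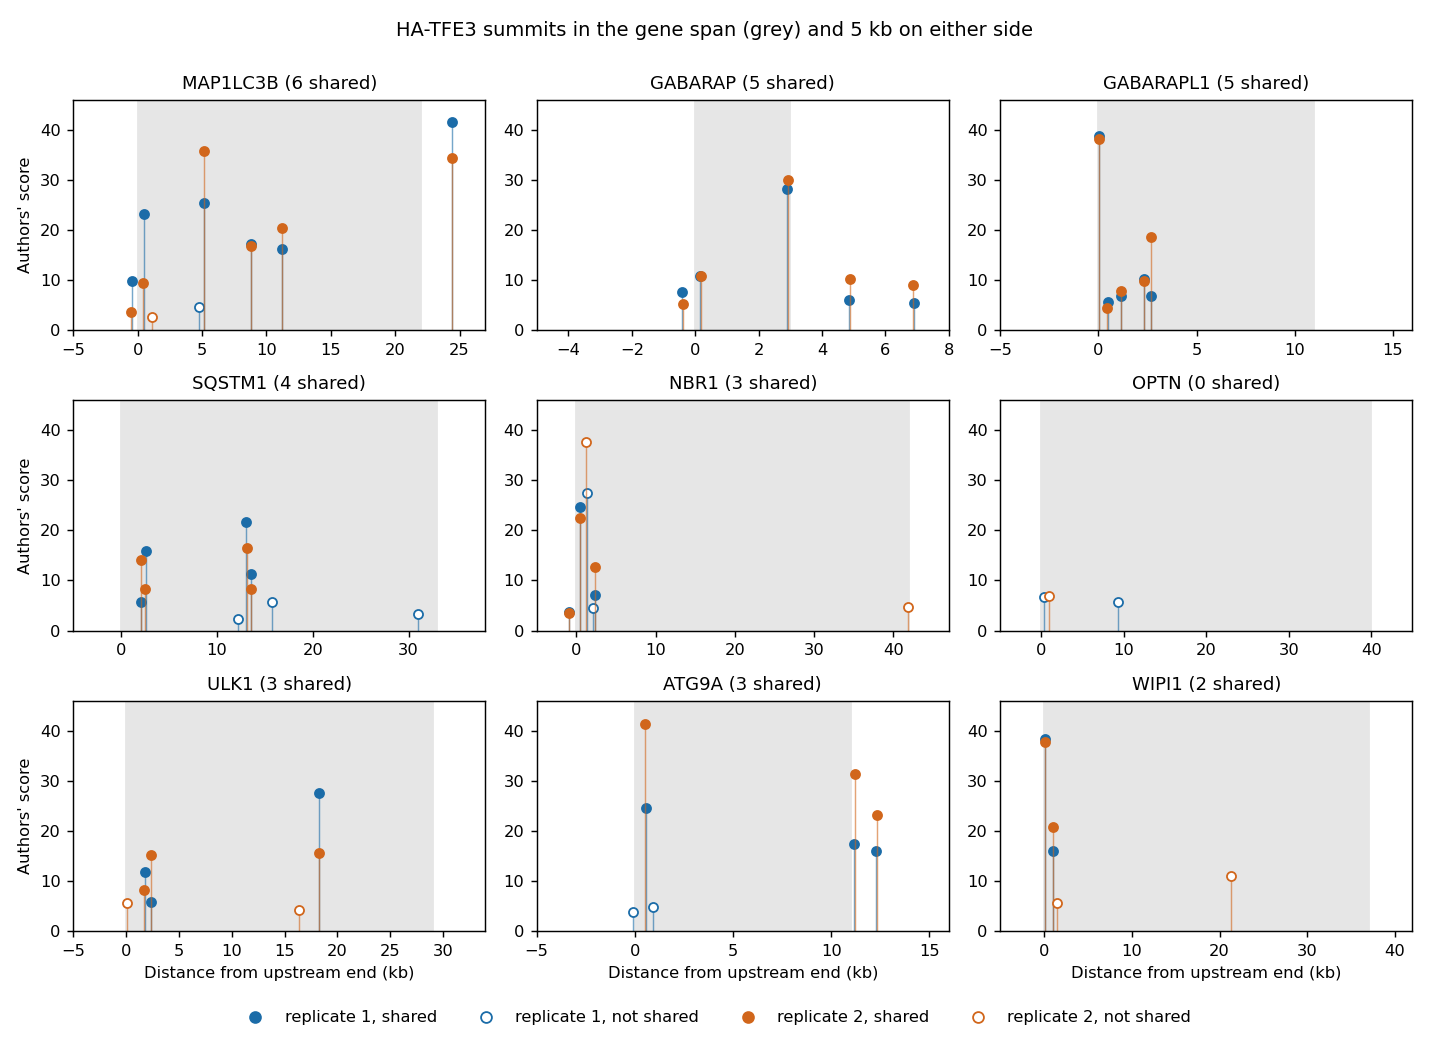
Summits in the window of each gene, with the distance from the upstream end in kb on the x axis and the authors' score on the y axis. Blue and orange mark replicates 1 and 2, filled points are shared and open points are not, and the grey area is the gene span. The highest scores stand at the upstream end in GABARAPL1, WIPI1 and ATG9A, beyond the downstream end in MAP1LC3B and deep inside the span in ULK1, and the 3 summits of OPTN lie below a score of 10.

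Among the genes of initiation and membrane supply, WIPI1 had its highest summit at the upstream end. WIPI1 lies in band 17q24.2 on the minus strand (66417000 to 66454000). The pair lay at base 66453948 in replicate 1 and 66453871 in replicate 2, 52 and 129 bp into the span, and scored 38.25 and 37.7 (percentiles 97.2 and 96.3). These summits stood 77 bp apart, so with a limit of 50 bp they no longer counted as shared, although both libraries had a high summit there. The second pair, at 1026 and 978 bp, scored 16.0 in replicate 1 and 20.7 in replicate 2. Replicate 2 had 2 further summits, at 1440 and 21290 bp, with scores of 5.53 and 11.1. The rest of the gene held no shared summit. Of genome windows of that length, which include regions without genes, 17.9% held at least 2. The number at WIPI1 alone, 2.73 times the genome density, thus did not set it clearly apart from such windows.

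ATG9A showed summits at both ends of its gene. It lies in band 2q35 on the minus strand (220084000 to 220095000). Its highest pair, at base 220094437 in replicate 1 and 220094458 in replicate 2, lay 563 and 542 bp into the span. It scored 24.5 in replicate 1 and 41.2 in replicate 2, the highest of all shared summits in the 9 windows in that list (percentiles 89.6 and 97.3). The others lay 161 and 1309 bp beyond the downstream end in replicate 1. They scored 17.4 and 15.9 in replicate 1 and 31.3 and 23.2 in replicate 2, so all 3 pairs had the higher score in replicate 2. In RefSeq the next gene downstream on the same strand, ABCB6, starts 10678 bp after the ATG9A start, close to the pair at 11161 bp from the upstream end. Starts of other neighbours, on either strand, were not listed, so the highest pair is not assigned to ATG9A alone. Replicate 1 had 2 weak summits of its own at the start, with scores of 3.70 and 4.83. Of genome windows of that length, 2.76% held at least 3 shared summits.

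ULK1 had its highest summit inside the gene. It lies in band 12q24.33 on the plus strand (132379000 to 132408000). The pair at base 132397251 in replicate 1 and 132397224 in replicate 2, 18251 and 18224 bp into the span, scored 27.6 and 15.6 (percentiles 92.3 and 74.8). Nearer the start, the pair at 1756 bp scored 11.8 in replicate 1 and 8.17 in replicate 2, and that at 2320 bp scored 5.77 and 15.2. The last of these had the largest difference in rank of the 31, at percentile 26.4 in replicate 1 and 73.9 in replicate 2. Which of these shared summits was the higher therefore differed between the libraries. Replicate 2 had 2 unpaired summits, at 138 bp with a score of 5.66 (percentile 27.4) and at 16329 bp with 4.23, and replicate 1 had none. Whether the intragenic pair lies in an exon or an intron was not determined, because no hg19 annotation was used here. At least 3 shared summits were present in 7.28% of genome windows of that length.

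Among the cargo receptors, SQSTM1 had 2 groups of shared summits. It lies in band 5q35.3 on the plus strand (179233000 to 179266000). The first group lay 2110 and 2600 bp into the span (replicate 1), with scores of 5.65 and 15.9 in replicate 1 and 14.1 and 8.21 in replicate 2, so the order of the summits was opposite in the libraries. The second group held the highest pair, at base 179246043 in replicate 1 and 179246092 in replicate 2 and 13043 and 13092 bp into the span. It scored 21.6 in replicate 1 and 16.4 in replicate 2 (percentiles 86.5 and 76.4), and its neighbour at 13556 bp scored 11.4 and 8.30. RefSeq lists 3 starts of SQSTM1, the second 616 bp and the third 14512 bp after the first. The second group thus lay before the place of the third start and not at the first, as far as a span given to 1 kb allows. A start of MGAT4B, a neighbour on the other strand, lies 473 bp after the first. Replicate 1 had 3 more summits with scores of 2.21 to 5.80, and replicate 2 had 0 of its own. Of genome windows of that length, 4.3% held at least 4 shared summits.

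NBR1, a receptor related to SQSTM1, lies in band 17q21.31 on the plus strand (41322000 to 41364000). Its highest shared pair fell on the same base in both libraries, 41322414, which is 414 bp into the span. It scored 24.75 in replicate 1 and 22.45 in replicate 2 (percentiles 89.9 and 86.4). A higher pair of summits lay just outside the limit for sharing. Replicate 1 had a summit at base 41323289 with a score of 27.5 and replicate 2 one at base 41323186 with 37.7, 103 bp apart (percentiles 92.2 and 96.3). At a limit of 200 bp they counted as shared, and NBR1 then had 4. The other shared pairs were weaker, with 3.70 and 3.49 at -913 bp and 7.12 and 12.6 at 2330 bp from the upstream end, in replicates 1 and 2. No shared summit lay in the rest of the gene. Of genome windows of that length, 10.8% held at least 3 shared summits.

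OPTN was the exception. It lies in band 10p13 on the plus strand (13141000 to 13181000). Replicate 1 had 2 summits, 262 and 9229 bp into the span, with scores of 6.67 and 5.80 (percentiles 35.3 and 28.3). Replicate 2 had 1, at 854 bp, with a score of 6.95 (percentile 38.9). Both libraries thus had a weak summit in the first 1 kb, 592 bp apart, too far to count as shared at any limit tried. The nearest shared summit lay 62470 bp after the upstream end, outside the window, with scores of 34.7 and 39.5 in replicates 1 and 2. At least 1 shared summit was present in 36.5% of genome windows of that length, which include regions without genes. A count of 0 was thus the more common outcome among such windows, but windows around other genes were not compared. The upper bound of the Poisson interval was 73.8 shared summits per Mb.

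Shared summits in the 9 windows had a higher median score than all shared summits in both lists. In replicate 1 the lowest, median and highest score of the 31 were 3.70, 15.9 and 41.6, and in replicate 2 they were 3.49, 15.2 and 41.2. The medians of all shared summits were 10.1 in replicate 1 and 11.9 in replicate 2. As percentiles, the medians in the windows were 76.5 in replicate 1 and 73.9 in replicate 2, against 59.1 and 64.3 for all shared summits. The best ranks of the 31 were 1259 of 62287 summits in replicate 1 (MAP1LC3B) and 1992 of 72647 in replicate 2 (ATG9A). The highest scores of the whole lists were 270.2 in replicate 1 and 253.2 in replicate 2. The score is the authors' own, on a scale that the labels do not describe, and it serves only to rank summits within a list.

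At or above percentile 90 in both lists there were 5 of the 31, or 16.1%, against 9.11% of all shared summits. They lay in the windows of MAP1LC3B (2), GABARAP, GABARAPL1 and WIPI1. This is 4 of the 16 shared summits in the ATG8 family windows, 1 of the 8 in those of the initiation genes and 0 of the 7 in those of the receptors. The pair at GABARAP is not assigned to that gene, and the highest pair at MAP1LC3B lay beyond its span (above). At a pairing limit of 200 bp the receptors had 1, that of NBR1. The median of the mean percentiles had another order, with 82.7 in the initiation genes, 59.3 in the ATG8 family and 56.3 in the receptors. These counts are small, and no difference between the groups was tested. Below the median of both lists there were 4, or 12.9%, against 24.4% of all shared summits. When only the 10000 highest-scoring summits of each list were used, 7 shared summits in 6 genes remained. MAP1LC3B then had 2, and GABARAP, GABARAPL1, WIPI1, ATG9A and NBR1 had 1 each, while SQSTM1 and ULK1 had 0. With only those that scored above their list's median, 17 shared summits remained, of which MAP1LC3B had 5 and ATG9A had 3.

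**Figure D4:**
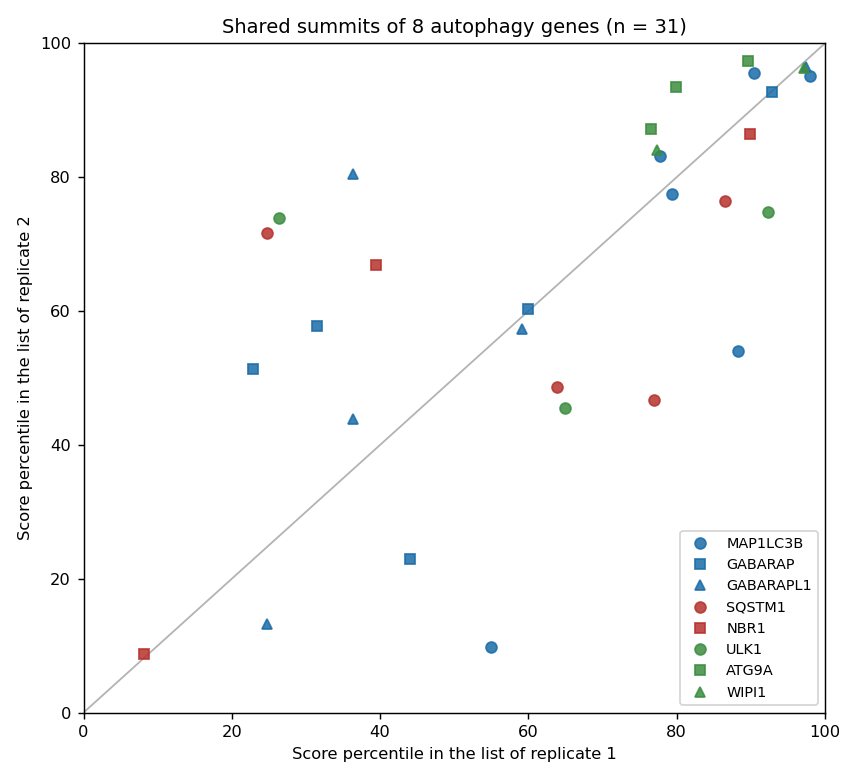
Score percentile of each shared summit in the list of replicate 1 (x axis) and of replicate 2 (y axis), with colours for the gene's role, symbols for the gene and a grey line of equal percentiles. Shared summits lie on both sides of the line, 15 with the higher percentile in each list, and the largest difference, at ULK1, is 47.5 points.

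Both libraries ranked the shared summits of these genes about as alike as those of the genome. The median difference in percentile between the libraries was 10.7 points over the 31 pairs, against 11.7 points over all pairs. In 15 pairs the percentile was higher in replicate 1 and in 15 in replicate 2, with the pair of GABARAP equal to the printed digit. The median distance between paired summits was 21 bp, against 26 bp over all pairs, and the largest was 90 bp. The highest pairs of GABARAPL1, WIPI1, GABARAP, MAP1LC3B and NBR1 differed by 0.0 to 3.5 percentile points, whereas those of ATG9A, SQSTM1 and ULK1 differed by 7.6, 10.1 and 17.5 points. ULK1 thus had the least alike highest pair, and GABARAP the most alike.

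Shared summits of these genes stood close together. Of the 31, 17 had another shared summit within 1 kb, or 54.8%, against 16.5% of all shared summits. They came from 6 genes and made 9 neighbouring pairs, 352 to 974 bp apart. The closest were those of GABARAPL1 at 352 and 416 bp and those of SQSTM1 at 490 and 513 bp. ATG9A and NBR1 had no shared summits within 1 kb of each other. A bound region may carry several summits, and the lists do not say which of these were called from the same region. The windows also held 6.25 times the genome density of shared summits. Windows around other genes were not compared, so the share of 54.8% cannot be read as particular to autophagy genes.

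Summits without a partner were mostly weak. There were 10 in replicate 1, with a median percentile of 18.3, and 8 in replicate 2, with a median of 26.4. In the whole lists the medians of such summits were 24.8 and 27.4. Above the median of its list there was 1 in replicate 1, the summit of NBR1 described above. In replicate 2 there were 2, the summit of NBR1 and that in the middle of WIPI1 (percentile 61.3). No read depth is given for either library, so a summit missing from a list is not shown to be an absence of binding.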

How the data were processed

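ChIP-seq summits of HA-TFE3 in HK-2 cells were analysed from 2 libraries. The authors deposited, per library, a list of 1 bp summits with a score, the unit of all values used. The submitters' processing notes name hg19 as the build. The aligner, caller and settings, the scale of the score and the use of input were not given in the sources used here. No read counts are listed, so depth is unknown.

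Only chromosomes 1 to 22 and X entered, with 1-based positions. Gene spans, to 1 kb, came with the choice of genes. Members, roles and gene lists were chosen with earlier results of these data known. Summits were paired as mutual nearest neighbours within 100 bp. The step was run on simulated lists with partners well within that limit and other summits far outside it. This checked the code and not the choice of limit. A percentile is a summit's rank in its own list. Background windows tile each chromosome at a gene window's length. Bands and chromosome lengths came from circlize and GenomeInfoDb, and promoters, gene lengths and neighbours from RefSeq (GRCh38.p14). Neighbouring genes were named after their starts were seen to lie near shared summits, and their part in the results was not tested. Starts of other neighbours were not listed, so further genes may start near shared summits. No coordinates were converted between builds. With 1 group and no control list, no comparison of conditions was tested. All 9 genes were named, each with its shared summits. Intervals are exact, at 95%. Python 3.11.15, NumPy 2.4.6, pandas 2.3.3, SciPy 1.17.1 and matplotlib 3.10.9 were used. Alternatives were other pairing limits, flanks, score cut-offs, single libraries, distances and motifs.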

Additional observations from a re-analysis of the deposited data

How the results depend on the processing

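The ratio of shared density to the genome stayed above 5 under the 9 alternatives run, from 5.13 to 9.95. It was 9.95 among the 10000 highest-scoring summits, and 5.13 to 6.28 with each library alone. The number of shared summits, 31, was 17 above the median scores and 7 among the 10000 highest, as fewer summits entered. It was 23 to 37 with the other pairing limits and flanks. The single lists of replicates 2 and 1 held 39 and 41 summits, for which no partner was needed. The share of replicate 1 that was shared, 75.6%, became 65.9% at a limit of 50 bp, 63.6% among the 10000 highest, 71.9% with no flank and 78.7% with 10 kb. That of replicate 2, 79.5%, became 69.2%, 70.0%, 74.2% and 78.7%, and 68.0% above the median scores. Within 5 kb of an upstream end there were 21 shared summits in place of 13. With CANNTG, TCANNTGA and TGACGTCA in place of CACGTG, 8, 2 and 1 genes held the motif, the last 2 forms chosen after the sequences were seen, as was the count without MAP1LC3B. Genes with a shared summit numbered 8 throughout, except 6 among the 10000 highest and 9 in single lists, where no partner is needed. The highest percentile of WIPI1, 96.8, was 80.7 at 50 bp, and that of NBR1, 88.1, was 94.3 at 200 bp. No paired analysis was possible because only 1 group has data. Depth, and sites in sequence of hg19, were not measured.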
